A study of Mus musculus with 4 samples.

Results

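Glycolysis and the step between pyruvate and lactate were followed through 10 enzyme genes in ribosome-bound RNA pulled down from mouse CA1. The members were chosen by name: Hk1, Pfkm, Pfkp, Pfkfb3, Pgk1, Eno1, Eno2, Pkm, Ldha and Ldhb, which are 10 of the 28193 genes in the deposited table. All 10 were found under 1 identifier each and passed the minimum of more than 5 counts in every library.

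Glycolysis splits glucose into pyruvate in the cytosol and yields ATP without oxygen. Hexokinase traps glucose in the cell, phosphofructokinase commits it to the pathway, and the later enzymes of the payoff phase recover ATP and NADH. Lactate dehydrogenase interconverts pyruvate and lactate, and most steps are carried out by isozymes from separate genes that differ between neurons, glia and other tissues.

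fosTRAP-seq sequences the mRNA on ribosomes of neurons that were active during a tagging window. Male C57BL/6J mice of 3 to 5 months received viral vectors in dorsal CA1, one carrying a tamoxifen-dependent Cre under the c-Fos promoter and one carrying a Cre-dependent, HA-tagged form of the ribosomal protein Rpl22. The sample labels instead give the genotype as cFos-Cre:Ribotag and the tissue as dorsal hippocampus, and no source used here reconciles them. Both groups went through a first sleep deprivation of 5 h on day 0 and were injected with 4-hydroxytamoxifen at ZT2 of that day, so that neurons expressing c-Fos during sleep loss were tagged. A second 5 h of sleep deprivation on day 7 set the SD group apart from the NSD group, which was left to sleep, and tissue was taken at ZT5. Each library pooled CA1 from 5 mice, which gave 10 mice and n = 2 libraries per group. Every standard deviation (s.d., given after ±) therefore measures a spread between pools, not between mice. The p-values also compare pools, and those of edgeR and DESeq2 draw on the spread of other genes too. The labels also give a batch number equal to the library number, so that each batch holds 1 library of either group. The published methods describe no batches, so pairing by this number rests on the labels alone.

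The 4 libraries held 153511705 to 195910235 estimated counts. Values are given in CPM, counts relative to the TMM-scaled library total, or in CPM per kilobase of exon where genes are compared with each other. All 8 markers of CA1 and pyramidal neurons were found, with a lowest value of 70.0 CPM in any library. They summed to 6561 and 7072 CPM in NSD and to 6408 and 6926 CPM in SD. Markers of other cells were present as well, and none of the 42 was at 0. Astrocyte markers summed to 3545 and 3086 CPM in NSD and to 3662 and 3671 CPM in SD. Endothelial and mural markers summed to 87.5 and 109.5 CPM in NSD and to 78.2 and 59.2 CPM in SD, with SD below NSD in every pairing of libraries for 9 of 10 markers and 0 of 10 called by edgeR without the batch as a block (7 of 10 at an unadjusted p under 0.05), 6 called lower with it and 4 called lower by DESeq2. Of the CA1 and pyramidal neuron markers, edgeR called 0 without the block (4 at an unadjusted p under 0.05), and 4 were called lower with it and 4 by DESeq2. The libraries hold RNA pulled down with tagged ribosomes from pooled tissue, and no library of the input is among the 4. Fewer cells of a type, less RNA per cell and a changed part of RNA from untagged cells cannot be told apart.

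**Figure D1:**
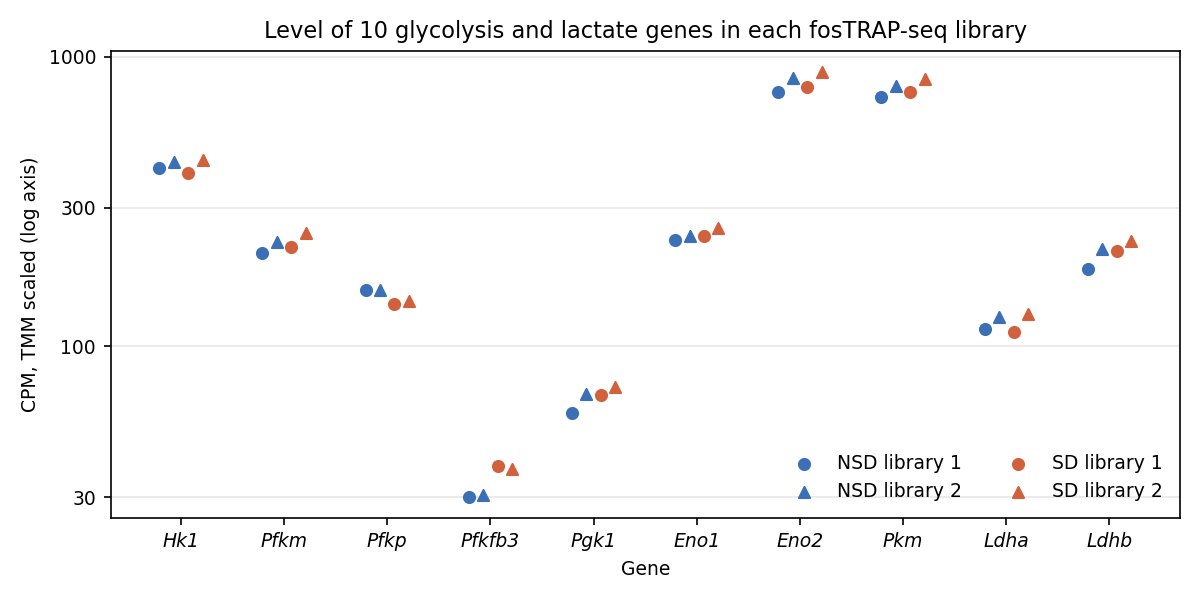
Level of each of the 10 genes in each library, in CPM on a log axis, with NSD in blue, SD in orange, library 1 as circles and library 2 as triangles. The points run from 30.2 CPM for Pfkfb3 in NSD library 1 to 884.5 CPM for Eno2 in SD library 2, and only for Pfkfb3 and Pfkp do the SD points lie apart from the NSD points.

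Per kilobase of exon, the neuronal enolase gene Eno2 was the most abundant of the 10. It measured 124.3 and 139.3 CPM per kilobase in NSD and 130.0 and 146.0 in SD, above every value of the other members. Pkm, the gene of muscle-type pyruvate kinase, came second with 54.2 to 62.5 CPM per kilobase over the 4 libraries. Hk1 with 45.3 to 49.9 and Ldhb with 41.2 to 51.2 CPM per kilobase followed, and their ranges overlapped. The ranges of Pgk1 (26.2 to 32.1 CPM per kilobase), Ldha (23.6 to 27.3) and Pfkm (23.5 to 27.5) also overlapped. Eno1 lay just below at 20.3 to 22.2 CPM per kilobase. Pfkp at 8.47 to 9.48 and Pfkfb3 at 3.74 to 4.76 CPM per kilobase were the lowest, without overlap.

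This order rests on the union of annotated exons as the length of a gene, which is 13417 bases for Pkm, 11500 for Eno1 and 16462 for Pfkp. With the Ensembl canonical transcript as the length, Pkm came first with 297.0 to 342.5 CPM per kilobase and Eno2 second with 269.2 to 316.4, and the ranges overlapped. Eno1 moved from rank 8 to rank 4, with 101.7 to 111.1 CPM per kilobase. Pfkp had rank 9 and Pfkfb3 rank 10 under all 3 length rules tried.

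Together the 10 genes took up 0.293% and 0.321% of the counts in NSD libraries 1 and 2, and 0.295% and 0.316% in SD libraries 1 and 2. Their summed level was 2880 and 3134 CPM in NSD and 2971 and 3274 CPM in SD. The sum changed by 0.04 on the log2 scale from NSD to SD in batch 1 and by 0.06 in batch 2, less than the 0.12 and 0.14 between library 1 and library 2 within NSD and SD.

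The difference between the batches ran through nearly the whole set. Library 2 was above library 1 in both groups for 9 of the 10 genes, where this held for 28.2% of all genes tested and 32.3% of the protein-coding genes. Pfkfb3 was the exception in order, with log2 differences between library 2 and library 1 of 0.03 in NSD and -0.03 in SD. Pfkp, which is among the 9, differed as little, by 0.0 in NSD and 0.03 in SD. The same order held for 7 of 8 CA1 and pyramidal neuron markers, for 1 of 6 GABAergic interneuron markers, and for 0 of 4 dentate granule cell, 0 of 10 astrocyte, 0 of 10 endothelial and mural, 0 of 6 oligodendrocyte and 0 of 6 microglia markers. The part of these cell types in the levels of the enzyme genes was not tested.

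After the second sleep deprivation, 1 of the 10 genes was called. Pfkfb3 rose, and the other 9 passed the test in neither direction. Calls required a fold change of more than 1.2 and an edgeR adjusted p below 0.05, adjusted over all 22338 genes tested, of which 0.770% were called higher and 2.33% lower. The shares were 0.952% and 0.540% among the 15551 protein-coding genes. At an unadjusted p under 0.05 stood 1 of the 10, against 19.1% of all genes. Every SD library was above every NSD library for 1 member, as for 22.0% of all genes, and below for 1 member, as for 27.5%. The groups overlapped for the other 8. With the batch as a block 1 member was again called higher and 0 lower, against 2.99% and 8.47% of all genes, and DESeq2 gave the same counts, against 671 higher and 1296 lower of the 22338 genes and 3.92% and 1.79% of the protein-coding genes. The log2 fold change was above 0 for 8 members and the median was 0.069, or 0.067 without Pfkfb3, where the median over all genes was -0.016 and over protein-coding genes 0.018. Hk1 and Ldha lay close to 0 and changed sign with the scaling or the rows entered, so the count of 8 is not fixed.

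**Figure D2:**
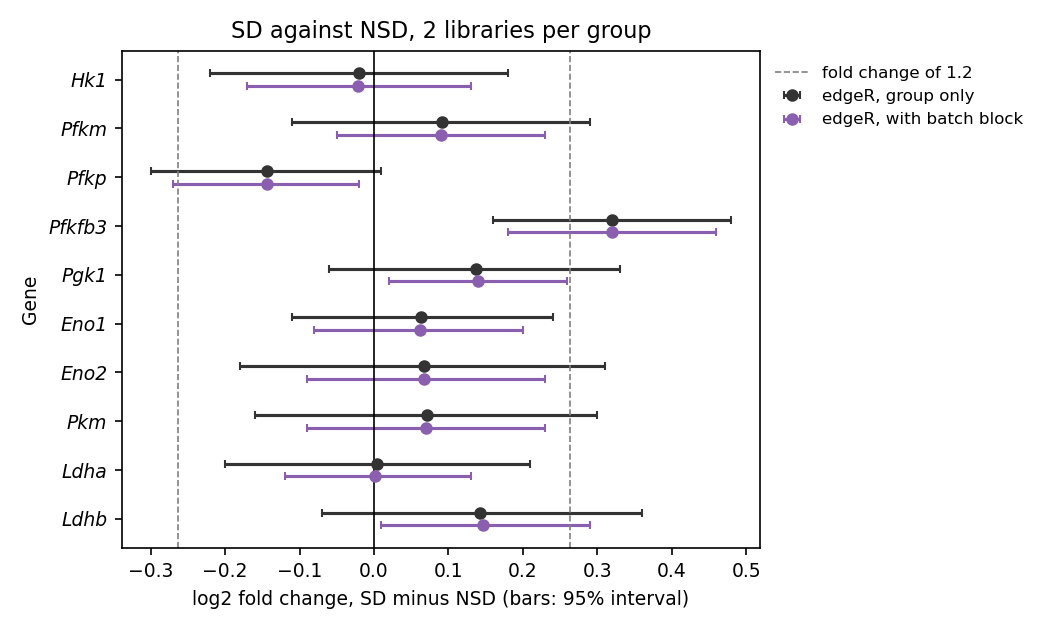
Log2 fold change of SD against NSD for the 10 genes from edgeR, with points for the estimate and bars for its 95% interval, in black without and in purple with the batch number as a block. Dashed lines mark a fold change of 1.2, and the black interval of Pfkfb3 runs from 0.16 to 0.48 while the other 9 black intervals include 0.

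Pfkfb3 (ENSMUSG00000026773, GRCm39 chromosome 2, 11476244 to 11558888, minus strand) encodes the enzyme that makes fructose 2,6-bisphosphate, the strongest allosteric activator of phosphofructokinase. In brain its protein is known to be kept low in neurons by degradation and to be more stable in astrocytes. Its level was 30.2 and 30.7 CPM in NSD and 38.4 and 37.6 CPM in SD, from 4821 to 7104 counts per library. Both SD values were above both NSD values, and the gap was wider than the spread within either group. The means were 30.4 ± 0.379 CPM in NSD and 38.0 ± 0.588 CPM in SD (s.d., n = 2 each). The log2 fold change was 0.32 with a standard error of 0.069, a fold of 1.249 with a 95% interval from 1.12 to 1.392, and an edgeR adjusted p of 0.0482. Within batch 1 the log2 difference was 0.35 and within batch 2 it was 0.29. With the batch as a block the edgeR adjusted p was 0.00462, and DESeq2 gave a log2 fold change of 0.34 with an adjusted p of 0.00162.

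The call lay close to the threshold. Leaving out any 1 library ended it, with a log2 fold change of 0.34 and an edgeR adjusted p of 0.0805 when NSD library 1 was dropped, 0.33 and 0.0617 for NSD library 2, 0.30 and 0.112 for SD library 1, and 0.35 and 0.0676 for SD library 2. It also ended with other sets of genes entered, at an edgeR adjusted p of 0.0554 without a count filter, 0.0712 with filterByExpr and 0.0941 with protein-coding genes only. The annotation places no exon of another gene on the exons of Pfkfb3, and no near-identical copy elsewhere was found. Astrocyte markers differed unevenly beside it, with SD above NSD in every pairing of libraries for 4 of 10, 0 called without the block (2 at an unadjusted p under 0.05 and 1 called higher by DESeq2) and 1, Gjb6, called higher with it. Over all genes, SD was above NSD in every pairing for 22.0%, and edgeR called 0.770% higher without the block and 2.99% with it. DESeq2 called 671 of the 22338 genes higher, and 19.1% had an unadjusted edgeR p under 0.05. For endothelial and mural markers the levels in SD lay on the other side, below NSD. The part of either cell type in the Pfkfb3 result was not tested.

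Of the other genes of this family of regulators, Pfkfb2 measured 2.21 to 2.63, Pfkfb4 1.38 to 1.51 and Pfkfb1 0.0173 to 0.0329 CPM per kilobase of exon, all below Pfkfb3 in every library. With the canonical transcript as the length, Pfkfb2 lay above Pfkfb3, at 8.31 to 9.87 against 5.34 to 6.80 CPM per kilobase. None of the 3 was called by edgeR, and their log2 fold changes were 0.02 for Pfkfb2, with a 95% interval from -0.21 to 0.25, 0.03 for Pfkfb4 (-0.21 to 0.27) and 0.51 for Pfkfb1 (-0.68 to 1.69). Whether Pfkfb3 changed more than they did was not tested. Exons of Pfkfb2 share 1839 bases with Yod1 on the opposite strand, a gene with 145% of the count of Pfkfb2. Those of Pfkfb1 share 187 bases with Apex2 on the opposite strand, with 4395% of the count of Pfkfb1. Whether the counting used the strand is not stated in the sources used here, so reads of Yod1 and Apex2 may be in these levels.

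Among 100 tested genes of 7 related carbohydrate lists, the patterns nearest to that of Pfkfb3 over the 4 libraries, by the root mean square difference of centred log2 CPM, were those of Hif1an (0.020), Ppp1r3c (0.037), H6pd (0.047), Hkdc1 (0.050) and Pdk1 (0.053). Since they were picked for likeness to Pfkfb3, their order of SD above NSD follows from the choice.

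Hk1 (ENSMUSG00000037012, chromosome 10, 62104621 to 62215687, minus strand) encodes the hexokinase that sits on the outer mitochondrial membrane of brain cells. It measured 413.1 and 433.8 CPM in NSD and 397.1 and 437.9 CPM in SD. The SD libraries spanned the range of the NSD libraries. The log2 fold change was -0.02, with a 95% interval of the fold from 0.857 to 1.134 and an edgeR adjusted p of 0.94, so that the interval did not reach a change of 1.2 in either direction. Per kilobase of exon, Hk1 stood far above Hkdc1, Hk2 and Hk3, with 45.3 to 49.9 CPM per kilobase against 1.25 to 1.72 for Hkdc1, 0.813 to 0.961 for Hk2 and 0.150 to 0.300 for Hk3. Exons of Hk3 share 36 bases on the opposite strand with Unc5a, a gene with a far higher count. Counted on canonical transcripts, Hk1 measured 92.8 to 102.3 and Hkdc1 1.82 to 2.50 CPM per kilobase.

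Phosphofructokinase-1 is a tetramer built from muscle, platelet and liver subunits, encoded by Pfkm, Pfkp and Pfkl. Pfkm (ENSMUSG00000033065, chromosome 15, 97990451 to 98031417, plus strand) measured 210.4 and 228.1 CPM in NSD and 220.5 and 246.6 CPM in SD, with overlapping groups, a log2 fold change of 0.09 (95% interval -0.11 to 0.29) and an edgeR adjusted p of 0.658. Pfkp (ENSMUSG00000021196, chromosome 13, 6629798 to 6698970, minus strand) measured 155.6 and 156.0 CPM in NSD and 139.4 and 142.6 CPM in SD. Both SD values of Pfkp were below both NSD values, which made it the member with the lowest log2 fold change, -0.14 (95% interval -0.30 to 0.01), at an edgeR adjusted p of 0.298. With the block its interval was -0.27 to -0.02 and its edgeR adjusted p 0.137, so that it was called in neither fit.

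Exons of Pfkp share 1831 bases with Pitrm1 on the opposite strand, a gene with 14.1% of the count of Pfkp, and exons of Pfkm share 391 bases with Senp1 on the opposite strand, with 8.44% of its count. Exons of Pfkl, the liver subunit gene, share 5126 bases with Cfap410 on the opposite strand, with 18.5% of its count. The library kit keeps the strand, but whether the counting used it is not stated in the sources used here, so some reads of these partners may have been counted under either gene.

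Pfkm made up a larger share of the pair after SD in both batches. Its share of Pfkm plus Pfkp, per kilobase of exon, was 71.3% and 72.9% in NSD and 74.4% and 76.0% in SD, a mean of 72.1 ± 1.11% against 75.2 ± 1.18% (n = 2 each). The groups did not overlap. The log2 ratio of Pfkm to Pfkp was higher in SD by 0.23, by 0.23 in batch 1 and by 0.24 in batch 2. The 2-sided exact permutation test gave p = 0.333, the smallest that this unpaired test can give with 2 against 2 libraries, so it could not pass a threshold of 0.05 whatever the values. The third subunit gene, Pfkl, measured 7.68 and 8.18 CPM per kilobase in NSD and 6.79 and 7.31 in SD, with the SD values below, a log2 fold change of -0.17 (95% interval -0.33 to -0.01) and an edgeR adjusted p of 0.244.

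Pgk1 (ENSMUSG00000062070, chromosome X, 105230706 to 105247305, plus strand) encodes phosphoglycerate kinase, the first enzyme of the pathway that returns ATP. The count of this gene cannot be separated with certainty from that of its processed copies. Gm5537 on chromosome 3 (58010417 to 58011668) matches a Pgk1 transcript over 1252 bases with 0 differences, and Pgk1-rs7 on chromosome 12 (10948986 to 10950240) over 1255 bases with 0 differences. Their counts came to 116% and 109% of that of Pgk1, and those of all 4 copies found to 225.9%. A read that lies within both matches has 3 equal places to map. The following stretch, coding bases 31 to 150 of Pgk1 from GRCm39, is shown as an example because it stands unchanged in both copies.
Pgk1, Gm5537 and Pgk1-rs7: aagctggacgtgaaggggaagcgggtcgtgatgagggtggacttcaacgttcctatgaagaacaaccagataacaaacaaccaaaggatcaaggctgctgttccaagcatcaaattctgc

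Pgk1 measured 58.8 and 68.1 CPM in NSD and 67.5 and 72.1 CPM in SD. The groups overlapped, and the log2 fold change was 0.14 (95% interval -0.06 to 0.33) with an edgeR adjusted p of 0.447. With the block its interval was 0.02 to 0.26 and its edgeR adjusted p 0.135, so that Pgk1 was called in neither fit. Summed with its copies it reached 86.8 and 100.2 CPM per kilobase in NSD and 96.8 and 103.5 in SD, and the log2 fold change was 0.10. Per kilobase of exon the sum was below Eno2 and above Pkm, against rank 5 for the Pgk1 count alone, but on canonical transcripts it was below both, at 106.7 to 127.2 CPM per kilobase against 297.0 to 342.5 for Pkm.

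Enolase turns 2-phosphoglycerate into phosphoenolpyruvate. Eno2 encodes the gamma form, used as a marker of neurons, and Eno1 the alpha form found in most cells. Eno2 (ENSMUSG00000004267, chromosome 6, 124736247 to 124746636, minus strand) measured 752.5 and 843.7 CPM in NSD and 787.2 and 884.5 CPM in SD, with a log2 fold change of 0.07 (95% interval -0.18 to 0.31) and an edgeR adjusted p of 0.813. Its groups interleaved, with both libraries of batch 2 above both of batch 1.

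Eno1 (ENSMUSG00000063524, chromosome 4, 150321073 to 150337027, plus strand) measured 233.3 and 240.4 CPM in NSD and 239.9 and 254.8 CPM in SD. The groups overlapped narrowly, and the log2 fold change was 0.06 (95% interval of the fold 0.926 to 1.179) with an edgeR adjusted p of 0.741. Its count too is shared with copies. Gm4735 on chromosome 2 (80667485 to 80668786) and the gene Eno1b on chromosome 18 had counts of 67.99% and 67.79% of that of Eno1, and 3 of the 5 copies found were in the table, with 136.62% together. Gm4735 differs from Eno1 at 5 of 1302 aligned bases.

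Eno2 held 86.0% and 87.0% of Eno2 plus Eno1 per kilobase of exon in NSD, and 86.2% and 86.8% in SD. The SD values lay between the NSD values, and the mean was 86.5 ± 0.699% in NSD and 86.5 ± 0.465% in SD. The log2 ratio of Eno2 to Eno1 differed by 0.00 between the groups (0.02 in batch 1, -0.02 in batch 2, exact permutation p = 1.0, 2-sided). The share itself moved with the length and the rows entered. It was 73.4% in NSD and 73.5% in SD on canonical transcripts, 73.0% in both groups with the copies added to Eno1, and 53.9% in both groups with both changes. In fold terms, Eno2 stood 6.13 to 6.67 times above Eno1 in the first case and 1.14 to 1.2 times in the last. Eno3, the muscle enolase, measured 0.203 to 0.295 CPM per kilobase of exon.

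**Figure D3:**
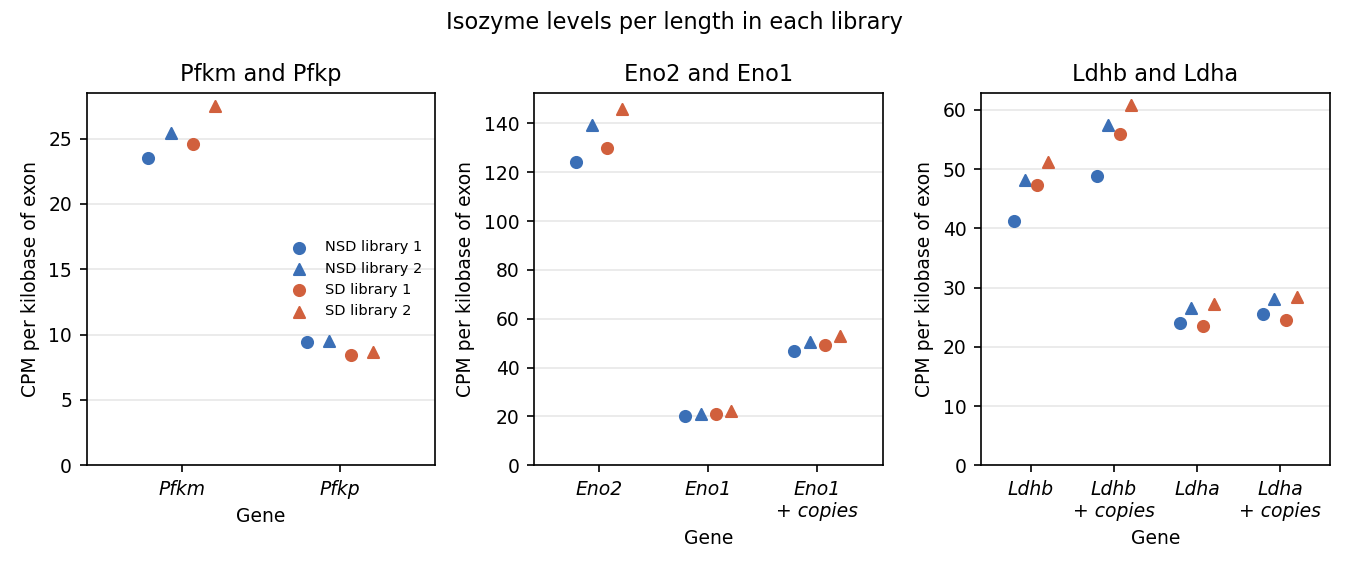
Levels of 3 isozyme pairs in each library in CPM per kilobase of exon, on linear axes from 0, with NSD in blue, SD in orange, library 1 as circles and library 2 as triangles. Pfkm lies above Pfkp, Eno2 above Eno1 and Ldhb above Ldha in all 4 libraries, also after the counts of near-identical copies are added to Eno1, Ldhb and Ldha.

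Pkm (ENSMUSG00000032294, chromosome 9, 59563364 to 59586663, plus strand) makes pyruvate kinase in an M1 form, usual in neurons and muscle, and an M2 form, usual in dividing cells and astrocytes. The forms differ by 1 of a pair of exons of 167 bases that are used in turn. Both exons are shown because they carry the whole difference between the forms, with capitals at the 64 bases that differ. They are read from GRCm39, plus strand, at chr9:59582312-59582478 and chr9:59582851-59583017, and of 155 coding transcripts in the annotation 79 hold the M1 exon and 51 the M2 exon.
Pkm M1 exon: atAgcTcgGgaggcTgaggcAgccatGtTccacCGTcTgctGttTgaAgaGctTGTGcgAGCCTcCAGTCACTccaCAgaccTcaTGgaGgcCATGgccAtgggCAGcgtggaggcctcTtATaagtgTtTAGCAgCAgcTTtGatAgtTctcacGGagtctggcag
Pkm M2 exon: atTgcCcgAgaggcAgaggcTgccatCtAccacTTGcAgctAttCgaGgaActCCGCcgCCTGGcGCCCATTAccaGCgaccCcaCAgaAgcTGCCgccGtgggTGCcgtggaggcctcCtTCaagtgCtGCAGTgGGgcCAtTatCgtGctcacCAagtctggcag

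The deposited counts are per gene, so the M1 and M2 forms were not separated here. Pkm measured 727.1 and 791.3 CPM in NSD and 756.0 and 838.5 CPM in SD. The groups overlapped, with both libraries of batch 2 above their partners in batch 1. The log2 fold change was 0.07 (95% interval -0.16 to 0.30) with an edgeR adjusted p of 0.782. The copy Gm6560 had 9.96% of the count of Pkm, and the log2 fold change was 0.07 with it added.

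Lactate dehydrogenase is a tetramer of A subunits, which favour the making of lactate, and B subunits, which favour its use. Ldha (ENSMUSG00000063229, chromosome 7, 46490899 to 46505061, plus strand) measured 114.4 and 126.1 CPM in NSD and 112.1 and 129.2 CPM in SD. The SD libraries spanned the NSD libraries, with a log2 fold change of 0.00, a 95% interval of the fold from 0.871 to 1.155 and an edgeR adjusted p of 0.988. Ldhb (ENSMUSG00000030246, chromosome 6, 142435672 to 142454586, minus strand) measured 185.3 and 216.0 CPM in NSD and 212.8 and 230.4 CPM in SD. The lower SD library of Ldhb stood between the NSD libraries, and the log2 fold change was 0.14 (95% interval -0.07 to 0.36) with an edgeR adjusted p of 0.479. With the block its interval was 0.01 to 0.29 and its edgeR adjusted p 0.168.

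The B subunit gene was the more abundant of the pair in all 4 libraries. Ldhb held 63.1% and 64.3% of Ldhb plus Ldha per kilobase of exon in NSD and 66.7% and 65.3% in SD, a mean of 63.7 ± 0.913% against 66.0 ± 0.997%. The groups did not overlap. The log2 ratio of Ldhb to Ldha was higher in SD by 0.14, by 0.23 in batch 1 and by 0.06 in batch 2, with a 2-sided exact permutation p of 0.333, again the smallest possible. The pseudogene Ldhb-ps had 18.77% of the count of Ldhb, and 3 copies of Ldha had 4.74% of that of Ldha. With copies added, the share of Ldhb was 66.5% in NSD and 68.8% in SD. Over the 3 isozyme pairs compared, the p-values adjusted over them could not fall below 0.333.

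Around the 10 members, 7 lists of the same metabolism were read for direction. They name 105 genes, of which 102 were in the table and 100 were tested. edgeR called 1 of the 100 higher and 0 lower, with 16 at an unadjusted p under 0.05, beside 19.1% of all genes. DESeq2 called 6 higher and 0 lower, beside 671 and 1296 of the 22338 genes and 3.92% and 1.79% of the protein-coding genes. Over the 100, the log2 fold change had a median of 0.030 and lay above 0 for 61, beside a median of 0.018 and 8434 of 15551 above 0 for the protein-coding genes. With the batch as a block, 7 of the 100 were called higher and 1 lower, beside 2.99% and 8.47% of all genes.

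**Figure D4:**
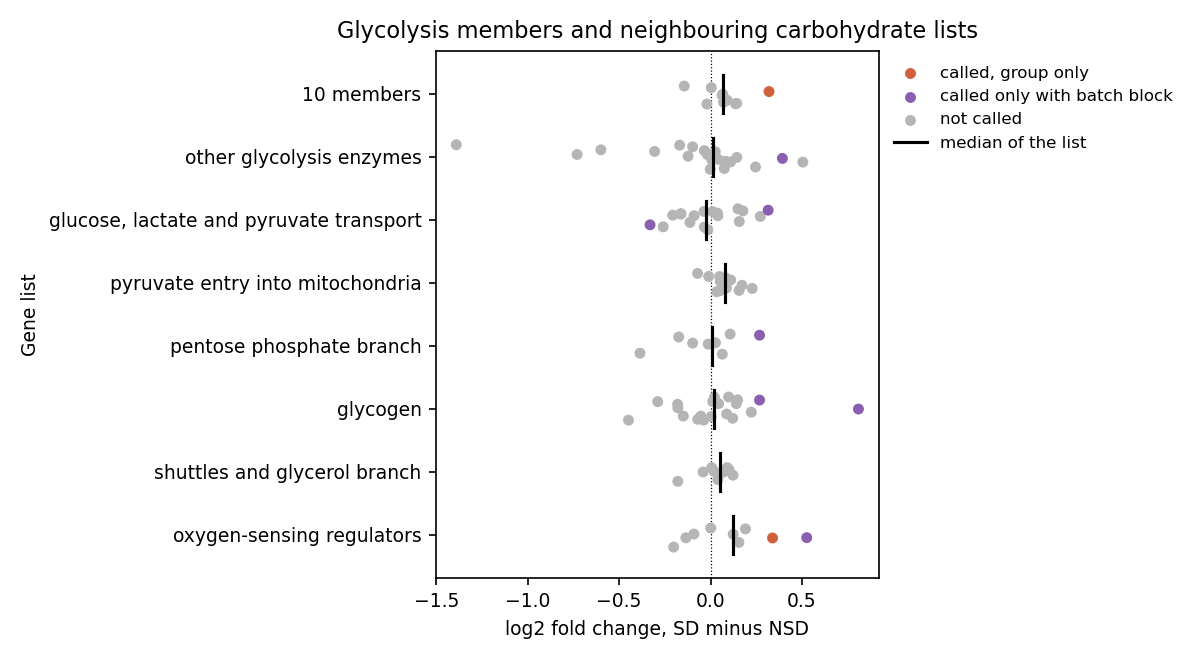
Log2 fold change of SD against NSD for the 10 members and for the tested genes of 7 related lists, 1 point per gene, with the median of each list as a black bar. Orange points were called by edgeR without the block (Pfkfb3 and Hif1an), purple points only with it, and the medians run from -0.025 for transport to 0.124 for oxygen-sensing regulators.

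The gene called without the block was Hif1an, of the 9 oxygen-sensing regulators. It encodes the asparagine hydroxylase that restrains the hypoxia-inducible factor HIF-1, a known activator of many genes of glycolysis. It measured 63.2 and 62.2 CPM in NSD and 79.9 and 78.7 CPM in SD, with a log2 fold change of 0.34 (95% interval 0.20 to 0.48) and an edgeR adjusted p of 0.0397. The call held with each library left out in turn, at an edgeR adjusted p of 0.0259 to 0.0485, and ended without a count filter (0.0519), with filterByExpr (0.0628) and with protein-coding genes only (0.0633). Hif1a itself measured 78.5 and 82.6 CPM in NSD and 74.8 and 76.4 CPM in SD, with a log2 fold change of -0.09 (95% interval -0.24 to 0.06). Hif3a was not called without the block (edgeR adjusted p 0.121) and was called with it, at a log2 fold change of 0.52 and an edgeR adjusted p of 0.0308, and by DESeq2, at 0.55 and an adjusted p of 0.0332.

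Of the 22 other glycolysis genes tested, 0 were called by edgeR (4 at an unadjusted p under 0.05) and the median log2 fold change was 0.013. DESeq2 called 1 of them higher and 0 lower. Hkdc1, which lies beside Hk1 and encodes a hexokinase-like protein, was called higher with the block, at 6.40 and 6.84 CPM in NSD and 8.58 and 8.80 CPM in SD, a log2 fold change of 0.39 and an edgeR adjusted p of 0.0263 against 0.106 without it, and by DESeq2 at an adjusted p of 0.0266.

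Among 18 transport genes the block added 1 gene in each direction. Emb, the partner protein of the monocarboxylate transporter MCT2, measured 26.9 and 30.4 CPM in NSD and 35.0 and 36.3 CPM in SD, with an edgeR adjusted p of 0.00645 with the block and 0.0793 without, and was called by DESeq2 at an adjusted p of 0.00986. Slc2a6, of the glucose transporter family, measured 14.6 and 14.2 CPM in NSD and 11.4 and 11.5 CPM in SD, at 0.0214 and 0.0906, and was not called by DESeq2 (adjusted p 0.0538). Leaving out NSD library 2 brought Emb past the threshold without the block, at an edgeR adjusted p of 0.0411. The neuronal glucose transporter gene Slc2a3 was called in neither fit, with a log2 fold change of 0.15 (95% interval -0.02 to 0.32), and MCT2 (Slc16a7) had 0.01 (-0.14 to 0.16).

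Of 20 glycogen genes edgeR called 0 without the block (2 at an unadjusted p under 0.05) and 2 with it, and DESeq2 also called these 2. Ppp1r3c, the subunit that brings protein phosphatase 1 to glycogen, measured 32.0 and 30.9 CPM in NSD and 38.4 and 37.4 CPM in SD, and Stbd1, which tethers glycogen to membranes, 1.12 and 1.25 CPM in NSD and 2.06 and 2.08 CPM in SD. Their edgeR adjusted p values were 0.0119 and 0.0281 with the block and 0.0772 and 0.103 without, and the DESeq2 adjusted p values were 0.0131 and 0.0219. In the pentose phosphate branch 1 of 8 genes, H6pd, was called with the block, at 16.6 and 15.7 CPM in NSD and 20.0 and 19.0 CPM in SD and an edgeR adjusted p of 0.0317 against 0.125, and was not called by DESeq2 (adjusted p 0.0537).

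The 13 genes of pyruvate entry into mitochondria and the 10 of the shuttles and the glycerol branch had 0 calls in edgeR with or without the block and 0 in DESeq2, with 2 and 0 genes at an unadjusted p under 0.05. Their medians were 0.081 and 0.053, and 11 of 13 and 8 of 10 genes had a log2 fold change above 0. Pdk1, a kinase that switches off pyruvate dehydrogenase, measured 57.7 and 61.8 CPM in NSD and 70.2 and 69.8 CPM in SD, with a log2 fold change of 0.23, below a fold of 1.2 in either fit, and an edgeR adjusted p of 0.105 without and 0.0177 with the block.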

How the data were processed

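fosTRAP-seq libraries (stranded total RNA kit with rRNA depletion, paired-end reads) were trimmed, aligned with STAR to mm39 (GRCm39) and assigned to Ensembl release 110 genes by expectation-maximization in Partek Flow by the authors. The deposited unit is the estimated count per gene, not normalized. Of the 28193 genes, 55.5% have a value that is not whole. Counts were rounded, and genes exceeding 5 counts in each library (22338) were tested with edgeR 4.0.16 (R 4.3.3): TMM scaling (factors 0.965 to 1.02), a quasi-likelihood fit with group as the only term, Benjamini-Hochberg adjustment. The common dispersion was 0.0296. Calls required a fold change of more than 1.2 at an adjusted p below 0.05. The script was tested on simulated data.

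Library totals ranged from 153511705 to 195910235 counts, with 26179 to 27551 genes counted, so precision is set by 2 pools per group. Libraries of a group differed by more than counting noise (chi-square per degree of freedom 92.9 in NSD, 52.4 in SD). The labels' batch number equals the replicate number and therefore pairs the libraries (correlation of deviations 0.178 over genes). The fit with it as a block was an alternative, beside DESeq2 1.42.0, its size factors, no count filter, filterByExpr, protein-coding genes only, no fold threshold and leaving out each library.

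Gene lengths, exon overlaps and sequences came from GENCODE release M39 on GRCm39. Near-identical copies were transcripts at another locus with at least 150 aligned bases at 95% identity or more (blastn 2.17.0). Canonical lengths and sums with copies were alternatives chosen after seeing the data. Aldoa has 2 rows, of which the larger was used. Isozyme log2 ratios were compared by exact permutation.

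The members and lists were chosen with earlier results of these data known. Named are all 10 members, list genes called with or without the block, copies that share reads with a member, and the 5 genes with the pattern nearest to Pfkfb3. Members of the same lists or families named for context without a call (Hk2, Hk3, Pfkl, Pfkfb1, Pfkfb2, Pfkfb4, Eno3, Hif1a, Slc2a3 and Slc16a7) and the marker Gjb6 were chosen after their values were seen. List genes outside this rule enter only the counts and medians.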

Additional observations from a re-analysis of the deposited data

How the results depend on the processing

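Precision is limited by 2 pools per group and by copies and lengths. With a replicate left out, the lone library of a group was assumed to vary like the others. Of 115 member fold changes under alternatives, 98 kept direction and side of the threshold, 10 changed sign and 7 (all Pfkfb3) lost the call. The cause was not tested.

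The count of members called higher was 0 with no count filter (Pfkfb3 0.348), with filterByExpr (0.327) and with protein-coding genes only (0.299), against 1, and 0 to 0 with a library left out (Pfkfb3 0.30 to 0.35). Hk1 changed sign with DESeq2 (0.00216), DESeq2's size factors (0.00216), no count filter (0.00793) and a library left out (-0.0807 to 0.0483), Ldha with protein-coding genes only (-0.0162), with copies (-0.0127) and a library left out (-0.0896 to 0.103), and Eno2 only without SD replicate 2 (range over libraries left out -0.00746 to 0.152). The log2 ratio of Eno2 to Eno1 ran from -0.06 to 0.07 with a library left out.

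With the replicate block the lists gave 7 genes higher and 1 lower, and in batch 2 the log2 ratio of Eno2 to Eno1 was -0.02. The block changed no call of a member. List genes called higher numbered 6 with DESeq2, 0 with no filter, with filterByExpr and with protein-coding genes only, and 1 to 2 with a library left out, where 0 to 1 were lower (Phkg1, a glycogen phosphorylase kinase subunit, at -0.784 without SD replicate 1, named after its values were seen). Over all genes, against 172 higher and 520 lower, the block called 668 and 1891, DESeq2 671 and 1296, no filter 50 and 80, filterByExpr 1 and 0, protein-coding genes only 51 and 39, and without NSD 1, NSD 2, SD 1 and SD 2 the counts were 124 and 78, 229 and 446, 292 and 1955, and 308 and 775.

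Shares of isozymes moved with length and rows. On the longest transcript they were 69.5% (NSD) and 72.8% (SD) for Pfkm, 80.8% and 80.8% for Eno2, and 66.7% and 68.8% for Ldhb. On canonical transcripts they were 60.2% and 64.1% for Pfkm, and 73.4% and 73.5% for Eno2. With copies they were 73.0% and 73.0% for Eno2, and 66.5% and 68.8% for Ldhb. With Eno1b added to Eno1, Eno2 held 79.2% and 79.2%. Library scaling cancels in a share.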
